A study of Mus musculus with 4 samples.

Results

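Dnaja4, Slc25a21, Sphk1, Slc43a1, Kbtbd12, Nckap1, Lmna, Dusp8 and Popdc2 were almost free of acetylated histone H3 at lysine 9 (H3K9ac) in leukaemic bone marrow without Mx-Cre, and well covered in leukaemic bone marrow with it. They are 9 of the 9615 genes in the deposited table, and were selected on 2 measured values, 0 or 1 read in the library without Cre and a high mean level in the library with Cre. The difference between the libraries is therefore how the genes were found, and it is given as a description with no test. Chromatin immunoprecipitation and sequencing (ChIP-seq) was done on mouse bone marrow, and all groups carried floxed Gfi1b and the Nup98 transgene (NUP98/HOXD13). The tg library (H3K9ac, 1 sample) came from marrow that was Gfi1b(fl/fl), Nup98(tg) and MxCre(tg). The WT library (H3K9ac, 1 sample) came from marrow that was Gfi1b(fl/fl), Nup98(tg) and MxCre(wt), so that these animals too had the leukaemia transgene and the floxed alleles, but lacked Cre. Each genotype also had 1 rabbit IgG library, whose values were not analysed here. Mx-Cre is driven by an interferon-responsive promoter, and neither the inducing treatment nor the number and age of the animals is given in the sources used here. Red cells were lysed before fixation, per the labels' protocols.

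H3K9ac marks promoters and enhancers that are open to transcription, and histone deacetylases remove it. GFI1B is a repressor of red cell and platelet precursors that brings the demethylase LSD1 and deacetylases to its target genes. Maturing red cells shut down most of their genes while a restricted set, for haemoglobin, membrane and transport proteins, stays active until the nucleus is lost. Among the 9 genes, Sphk1 and Slc43a1 have known roles in red cells, whereas Lmna, Dusp8 and Popdc2 are best known from muscle, heart or brain.

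The scaled values correspond to totals of 163712 reads in tg and 309649 in WT, so WT was the deeper library by 1.89 times. Scaled reads are reads divided by this total and multiplied by 1000000, and the floor used for a count of 0 is 3 reads, or 18.3 scaled reads in tg and 9.69 in WT. The median gene with 1 probe (the stretch of a gene over which reads were counted, named in the table without its position) had 11 reads in tg and 22 in WT. Gfi1b, the gene the Cre is meant to delete, held 108 reads in tg and 12 in WT over 4 probes (interval of the ratio of scaled reads, 9.36 to 34.0). Probe positions were not in the table, so this does not check the deletion. With 1 library per genotype there is no replicate spread, and every interval here covers counting error only.

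In reads, the 9 genes together held 331 in tg and 6 in WT. In WT, 3 of them (Dnaja4, Slc43a1 and Kbtbd12) had 0 reads and 6 had 1 read. All 9 were at least 2-fold higher in tg, where 16.5% of all genes in the table were, but the rule used this contrast and nothing is read from the count. Their log2 ratios of the deposited levels ran between 5.44 (Popdc2) and 6.60 (Dnaja4), with a median of 5.80, against 0.05 over all genes. Another 3 genes met the same rule with levels within the range of the 9. They were Epb4.9 (42 reads in tg and 0 in WT), which encodes the membrane skeleton protein dematin, the microRNA gene Mir144 (40 in tg and 1 in WT) and the erythropoietin receptor gene Epor (28 in tg and 0 in WT).

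**Figure D1:**
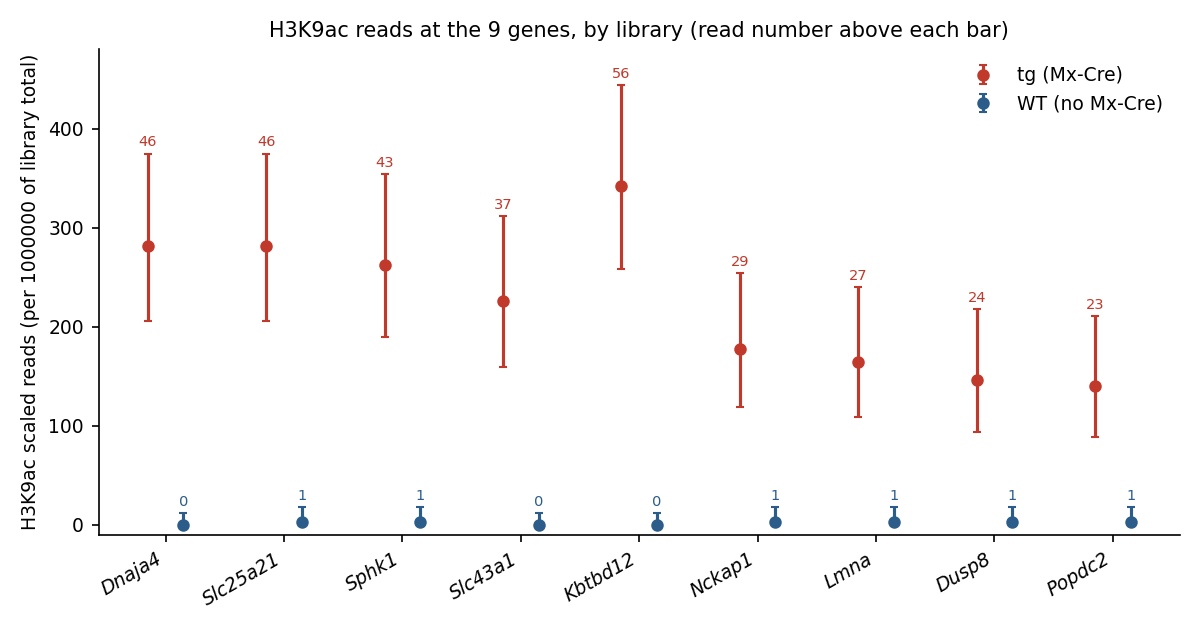
H3K9ac scaled reads at each of the 9 genes (vertical axis), with tg left of WT; points are the value of the 1 library and bars its exact Poisson 95% interval, with the read number above. The tg values lie between 140 (Popdc2, 23 reads) and 342 (Kbtbd12, 56 reads over 2 probes), while every WT value is 0 or 3.23.

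Sphk1 encodes sphingosine kinase 1, which makes sphingosine 1-phosphate, a lipid that red cells store and release into plasma. Its gene (chromosome 11, 116530925 to 116536674, GRCm38, ENSMUSG00000061878) is the shortest of the 9 at 5.75 kb. The single probe held 43 reads in tg (95% interval 31.1 to 57.9) and 1 in WT (0.0253 to 5.57). At an equal level the tg reads would have corresponded to 81.3 reads in WT. The ratio of scaled reads was 81.3 with an interval of 13.8 to 3286, which a single WT read leaves loosely bounded at the top. Of 21 other sphingolipid genes in the table, 4 passed 2-fold upwards in tg and 4 downwards, where 15.8% of all genes were lower. Mfsd2b, the transporter that exports sphingosine 1-phosphate from red cells, had the highest log2 ratio of that list (4.31), with 42 reads in tg and 4 in WT (19.9-fold higher, 7.21 to 76.3), and is also in the red cell list. The paralogue Sphk2 held 45 reads in tg and 77 in WT (ratio 1.11, 0.748 to 1.62). Sgpl1, whose enzyme breaks the lipid down, held 15 in tg and 47 in WT (ratio 0.604, 0.314 to 1.10). Both of these intervals include 1.

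Slc43a1 encodes LAT3, a transporter of leucine and other neutral amino acids that feeds haemoglobin synthesis in zebrafish and mouse red cell precursors. At chromosome 2, 84838850 to 84863594 (ENSMUSG00000027075), its single probe had 37 reads in tg (26.1 to 51.0) and 0 in WT (0 to 3.69). Against the floor of 3 reads in WT the level was at least 23.3-fold higher in tg. Its family members were much closer to equality, which the choice of Slc43a1 by this contrast made likely. Slc43a2 had 30 reads in tg and 58 in WT (ratio 0.978, 0.608 to 1.55), and Slc43a3, which lies 73.0 kb away, had 30 in tg and 31 in WT (1.83, 1.07 to 3.13). Of 13 amino acid transporter genes in the table, 1 was 2-fold higher in tg (Slc6a9, a glycine transporter gene, 5 reads in tg and 4 in WT, ratio 2.36) with an interval of 0.509 to 11.9, and 1 was lower. The lower one, Slc38a1, a glutamine transporter gene, held 10 reads in tg and 117 in WT (6.19-fold lower, 3.25 to 13.2).

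The promoter windows of these 2 genes are shown because the genes have red cell roles. Where a gene has several start sites, the window printed is the most upstream one, among those with a GATA match if there are any. Sphk1 has 5 start sites, and 2 of its windows, which overlap, hold such a match. Each covers 250 bases before to 50 bases after a start site in RefSeq (GRCm38.p6), read 5′ to 3′ along the gene. Capitals mark the letters AGATAA or TGATAA, bound by GATA factors, and CACCC, bound by KLF factors, on either strand, so that TTATCT and GGGTG are the reverse forms. Sphk1 is at chr11:116532194-116532493, plus strand, and Slc43a1 at chr2:84840073-84840372, plus strand.
Sphk1: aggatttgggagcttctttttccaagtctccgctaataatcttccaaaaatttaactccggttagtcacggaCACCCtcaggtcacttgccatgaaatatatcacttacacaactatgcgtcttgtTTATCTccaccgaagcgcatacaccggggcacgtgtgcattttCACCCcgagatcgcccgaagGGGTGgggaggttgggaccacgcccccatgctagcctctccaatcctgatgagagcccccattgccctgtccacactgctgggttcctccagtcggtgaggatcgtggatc
Slc43a1: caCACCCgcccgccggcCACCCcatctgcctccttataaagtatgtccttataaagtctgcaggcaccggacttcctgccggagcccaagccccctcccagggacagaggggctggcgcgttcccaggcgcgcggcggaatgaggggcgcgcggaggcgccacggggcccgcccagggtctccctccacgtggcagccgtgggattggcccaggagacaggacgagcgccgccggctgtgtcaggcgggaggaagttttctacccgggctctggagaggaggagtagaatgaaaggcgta
The Sphk1 window has 1 GATA match, 124 bases before the start site, and 3 CACCC matches. The Slc43a1 window has no GATA match and 2 CACCC matches. Because the table gives no probe positions, the reads cannot be placed in these windows.

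Dnaja4 and Slc25a21 had equal reads in tg and the highest deposited tg levels of the 9. Dnaja4 encodes a J-domain (HSP40) co-chaperone that hands unfolded proteins to HSP70 chaperones. Its probe (chromosome 9, 54698873 to 54716315, ENSMUSG00000032285) had 46 reads in tg (33.7 to 61.4) and 0 in WT (0 to 3.69), at least 29.0-fold higher in tg. In tg, 98.1% of all genes had a lower deposited level, an order of levels per probe that is not corrected for probe width. The paralogues of its subfamily were far closer to equal, which the choice of Dnaja4 by this contrast made likely. Dnaja1 held 25 reads in tg and 89 in WT (ratio 0.531, 0.327 to 0.836), Dnaja2 held 37 in tg and 59 in WT (1.19, 0.764 to 1.82), and Dnaja3 held 40 in tg and 61 in WT (1.24, 0.811 to 1.88). Among 39 J-domain and HSP70 system genes in the table, 4 were 2-fold higher in tg and 5 lower, with a median log2 ratio of -0.08. By summed reads 3 were higher, since Dnajb4 (71 in tg and 156 in WT, ratio 0.861, 0.641 to 1.15) lay within 2-fold. Of the 3, Dnajc24 (8 in tg and 5 in WT) had an interval of 0.873 to 11.8, which includes 1. Bag3, a co-chaperone gene of stressed and muscle cells, had 21 reads in tg and 16 in WT (2.48-fold higher, 1.23 to 5.09). The endoplasmic reticulum chaperone gene Hspa5 had 5 in tg and 34 in WT (3.60-fold lower, 1.40 to 11.8).

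Slc25a21 encodes a carrier that moves oxodicarboxylates across the inner mitochondrial membrane, a step in the breakdown of lysine and tryptophan. It is the longest of the 9 genes at 485 kb (chromosome 12, 56712634 to 57197472, ENSMUSG00000035472), yet held a single probe with 46 reads in tg (33.7 to 61.4) and 1 in WT (0.0253 to 5.57). The ratio was 87.0 (14.9 to 3510). Of 27 other mitochondrial carrier genes in the table, 9 were 2-fold higher in tg (7 by summed reads) and 2 lower, where 16.5% and 15.8% of all genes were. The median log2 ratio of these carrier genes was 0.18. Mcart1 (now Slc25a51), a mitochondrial NAD carrier gene, had the highest deposited log2 ratio of these (2.93), with 34 reads in tg and 18 in WT over 2 probes (3.57-fold higher by summed reads, 1.96 to 6.72). Slc25a38, which brings glycine into mitochondria for haem synthesis, held 21 in tg and 13 in WT (3.06-fold, 1.46 to 6.64), and is also in the red cell list. Slc25a25 held 34 in tg and 12 in WT (5.36-fold, 2.71 to 11.4).

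The windows of Dnaja4 and Slc25a21 are shown as the pair with equal tg reads and unlike promoters. Dnaja4 is at chr9:54699033-54699332, plus strand, and Slc25a21 at chr12:57197423-57197722, minus strand. Capitals are as above.
Dnaja4: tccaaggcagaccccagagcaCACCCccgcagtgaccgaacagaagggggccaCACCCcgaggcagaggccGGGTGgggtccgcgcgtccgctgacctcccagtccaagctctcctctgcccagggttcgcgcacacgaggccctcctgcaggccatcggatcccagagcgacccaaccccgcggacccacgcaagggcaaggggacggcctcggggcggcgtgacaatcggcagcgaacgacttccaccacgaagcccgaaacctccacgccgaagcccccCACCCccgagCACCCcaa
Slc25a21: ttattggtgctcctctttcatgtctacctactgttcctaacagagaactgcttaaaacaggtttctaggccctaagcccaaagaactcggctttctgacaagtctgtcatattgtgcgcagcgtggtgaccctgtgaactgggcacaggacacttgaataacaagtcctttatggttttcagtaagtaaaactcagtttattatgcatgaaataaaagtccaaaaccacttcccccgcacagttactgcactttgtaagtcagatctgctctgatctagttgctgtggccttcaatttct
The Dnaja4 window is 70.3% G and C with 28 CpG dinucleotides and 5 CACCC matches. The Slc25a21 window is 43.0% G and C with 4 CpG and neither of the motifs in capitals.

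Nckap1 and Lmna are genes of cell architecture. Nckap1 encodes a subunit of the WAVE complex, which drives actin branching at the cell edge, and blood cells otherwise rely on its paralogue Nckap1l. At chromosome 2, 80500512 to 80581380 (ENSMUSG00000027002), its probe had 29 reads in tg (19.4 to 41.6) and 1 in WT (0.0253 to 5.57), a ratio of 54.9 (9.09 to 2240). Of its partners in the complex, Cyfip2 and Wasf2 were lower in tg, while Abi1, Cyfip1, Abi3 and 6720456B07Rik (now Brk1) lay within 2-fold. The ratio was 0.827 for Cyfip1 (14 in tg and 32 in WT, 0.408 to 1.60) and 1.30 for Brk1 (20 in tg and 29 in WT, 0.699 to 2.39). For Abi3 it was 0.811 (3 in tg and 7 in WT, 0.135 to 3.55). Cyfip2 held 3 reads in tg and 44 in WT (7.75-fold lower, 2.49 to 39.0), Wasf2 held 11 in tg and 66 in WT (3.17-fold lower, 1.66 to 6.66), and Abi1 held 27 in tg and 49 in WT (ratio 1.04, 0.626 to 1.70). Nckap1l is not among the genes analysed here. Of 17 WAVE and ARP2/3 genes in the table, 2 were 2-fold higher in tg (Rac1 and Wasl) and 3 lower. By summed reads Rac1 had a ratio of 1.51 (1.01 to 2.25) and Wasl of 1.71 (1.13 to 2.59), and neither reached 2-fold.

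Lmna encodes lamins A and C, which stiffen the nucleus and are abundant in muscle and other load-bearing tissues, whereas blood cells rely more on B-type lamins. Its probe (chromosome 3, 88481148 to 88509956, ENSMUSG00000028063) had 27 reads in tg (17.8 to 39.3) and 1 in WT (0.0253 to 5.57), a ratio of 51.1 (8.42 to 2091). The B-type lamin gene Lmnb1 had 35 reads in tg and 88 in WT (ratio 0.752, 0.493 to 1.12), and Lbr, the lamin B receptor gene, had 43 in tg and 57 in WT (1.43, 0.937 to 2.16). Both intervals include 1. Of 13 lamina and nuclear envelope genes in the table, 1 was 2-fold higher in tg and 4 were lower. By summed reads 2 were lower, since Sun2 (27 reads in tg and 73 in WT, ratio 0.700, 0.432 to 1.10) and Tor1a (16 in tg and 35 in WT, 0.865, 0.447 to 1.60) lay within 2-fold. The higher one was Sun1, which links the lamina to the cytoskeleton, with 21 reads in tg and 11 in WT (3.61-fold, 1.66 to 8.29). Emd, the emerin gene, held 4 in tg and 24 in WT (3.17-fold lower, 1.09 to 12.6).

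Dusp8 and Popdc2 had the lowest tg reads of the 9. Dusp8 encodes a phosphatase that switches off the stress kinases JNK and p38 and is known from brain and heart. At chromosome 7, 142079490 to 142095843 (ENSMUSG00000037887), its probe had 24 reads in tg (15.4 to 35.7) and 1 in WT (0.0253 to 5.57), a ratio of 45.4 (7.40 to 1867). Several other phosphatases of its family were lower or near equality. Dusp16, its close relative, held 32 reads in tg and 79 in WT (ratio 0.766, 0.492 to 1.17). Dusp6, which acts on ERK, held 3 in tg and 30 in WT (5.29-fold lower, 1.64 to 27.1), and Dusp22 held 1 in tg and 23 in WT (12.2-fold lower, 1.97 to 501). Of 20 genes of phosphatases and their kinases in the table, 2 were 2-fold higher in tg and 5 lower, where 16.5% and 15.8% of all genes were. The 2 higher ones were Mapk14, which encodes p38 alpha, and Dusp12. By summed reads the ratio was 1.20 for Mapk14 (0.765 to 1.87) and 2.27 for Dusp12 (0.577 to 9.40), and both intervals include 1.

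Popdc2 encodes a membrane protein that binds cyclic AMP and is needed for heart pacemaking in mice and zebrafish. Its probe (chromosome 16, 38362209 to 38378216, ENSMUSG00000022803) had 23 reads in tg (14.6 to 34.5) and 1 in WT (0.0253 to 5.57), a ratio of 43.5 (7.06 to 1792). Of 28 other Popeye family and striated muscle genes listed, 1 was in the table: Myh1, a muscle myosin gene, with 4 reads in tg and 7 in WT (ratio 1.08, 0.232 to 4.25). The Popdc2 window (chr16:38361940-38362239, plus strand) is shown because it is the other member promoter with a GATA match, 156 bases before the start site, and it has 1 CACCC match.
Popdc2: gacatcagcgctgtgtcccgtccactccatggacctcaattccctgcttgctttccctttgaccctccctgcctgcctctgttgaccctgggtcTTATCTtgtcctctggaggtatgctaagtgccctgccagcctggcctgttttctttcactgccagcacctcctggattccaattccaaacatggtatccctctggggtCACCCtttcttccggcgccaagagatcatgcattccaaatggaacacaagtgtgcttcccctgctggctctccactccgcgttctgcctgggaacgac
The first 89 bases of Popdc2 overlap the gene model RP24-528G7.5. That model held 17 reads in tg and 15 in WT on the probe it shares with Cox17, so Popdc2 was counted on a different probe.

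Kbtbd12 encodes a protein with kelch repeats and a BTB domain, a type that often hands substrates to the ubiquitin ligase CUL3, and its own function is little known. It was the only member with 2 probes (chromosome 6, 88547722 to 88627445, ENSMUSG00000033182). They held 19 and 37 reads in tg, and each held 0 in WT. Its 56 reads in tg (42.3 to 72.7) against 0 in WT (0 to 3.69) made it at least 35.3-fold higher in tg. Both probes thus had reads in tg only. The gene was chosen for its 0 WT reads, and no 1-probe gene in the table had fewer than 9 reads over both libraries. If the same limit holds for each probe, both are listed only through their tg reads, so their agreement is no separate support. Of 24 related kelch and BTB genes in the table, 3 were 2-fold higher in tg and 7 lower, where 16.5% and 15.8% of all genes were. The 3 higher ones were Gm5465 (now Kbtbd6), Klhl21 and Kbtbd8, with 7 to 13 reads in tg and 5 to 12 in WT. The interval of each of the 3 includes 1. Among the 7 lower ones, Klhl35 held 3 reads in tg and 24 in WT (4.23-fold lower, 1.28 to 21.9). Klhl9 held 6 in tg and 35 in WT (3.08-fold lower, 1.28 to 8.97), and Klhl5 held 9 in tg and 43 in WT (2.53-fold lower, 1.21 to 5.89). The intervals of Klhl36, Klhdc5 and Klhl20 include 1, and Klhl4 has no recovered reads.

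**Figure D2:**
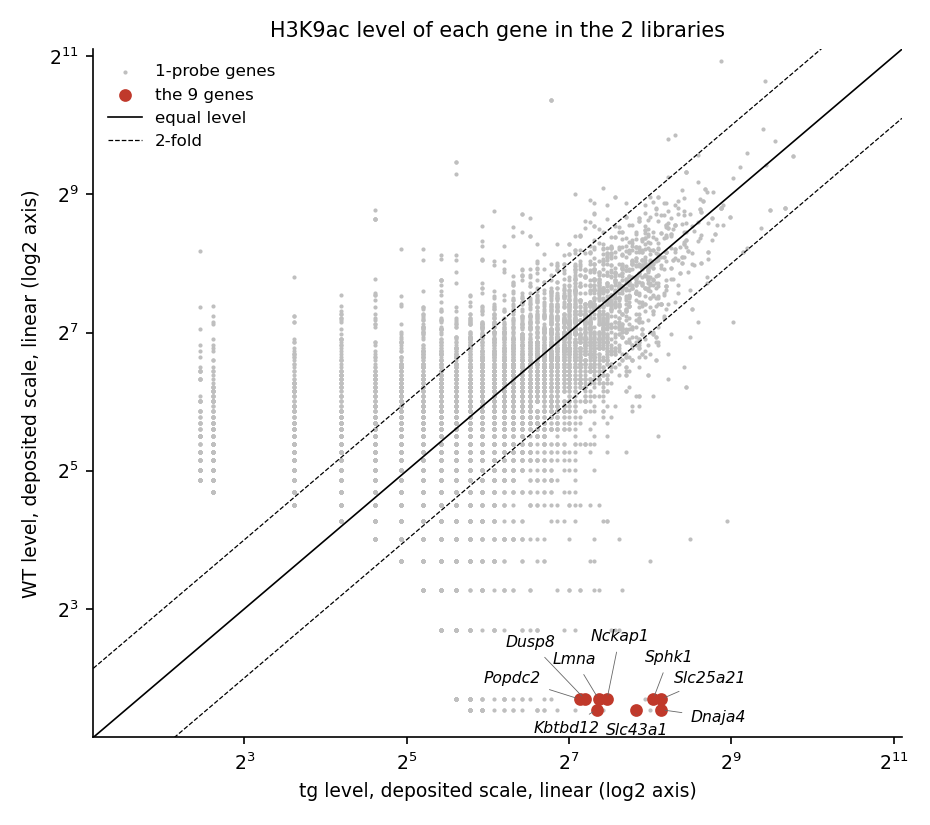
Linear value of the deposited level in tg (horizontal) and WT (vertical) for every gene with 1 probe (grey) and for the 9 genes (red), on log2 axes, with lines at equality and at 2-fold. The 9 genes lie at the bottom edge in WT, where 0 reads were entered as 0.9 of a read, and at levels that 85.0% (Popdc2) to 98.1% (Dnaja4, Slc25a21) of all genes do not reach in tg.

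Low WT reads were uncommon, and what the table lists bounds them. Of 9490 genes whose WT reads could be recovered, 99 (1.04%) had at most 1, while 237 of 9496 (2.50%) had at most 1 read in the shallower tg library. Every 1-probe gene in the table had at least 9 reads over both libraries, so a gene with 1 WT read had to hold at least 8 in tg to be listed. The 99 genes accordingly held 8 to 56 reads in tg, with a median of 10. Just inside the members' range were Popdc2, Dusp8 and Kbtbd12. Just below it came Zcchc3 (22 reads in tg and 0 in WT) and Fam109b (43 in tg over 2 probes and 1 in WT). With slightly more WT reads came Rabgap1l (33 in tg and 3 in WT), Tmem56 (32 in tg and 2 in WT) and Plscr4 (31 in tg and 2 in WT).

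Genes next to the 9 were looked at because the rule did not use them. Within 100 kb lay 28 other genes of the table, or 26 after counting shared probes once. Of these, 5 were 2-fold higher in tg, 1 was 2-fold lower and 20 lay within 2-fold. The share of 19.2% higher (exact binomial interval 6.55 to 39.4) was near the 16.5% of all genes. Wdr61, which overlaps Dnaja4 by 1581 bases, held 12 reads in tg and 22 in WT (ratio 1.03, 0.465 to 2.18). Idh3a on the other side held 11 in tg and 17 in WT (1.22, 0.518 to 2.77). Around Lmna, 6 neighbours had log2 ratios between -2.08 and 0.23.

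The 5 higher neighbours lay beside Kbtbd12, Slc43a1, Sphk1, Dusp8 and Popdc2. Mgll, the monoacylglycerol lipase gene 97.0 kb from Kbtbd12, held 8, 8, 13 and 13 reads on its 4 probes in tg, and 0, 0, 1 and 1 in WT (39.7-fold higher, 10.3 to 339). Smtnl1, a gene of smooth and striated muscle contraction 16.2 kb from Slc43a1, held 9 reads in tg and 0 in WT, at least 5.67-fold higher. Between Smtnl1 and Slc43a1 lies Timm10, a mitochondrial import gene, with 6 reads in tg and 9 in WT (ratio 1.26, 0.369 to 3.97), so the stretch was not uniform. Ypel4, needed for red cell membrane integrity in mice, lies just beyond 100 kb of Slc43a1 and held 12 reads in tg and 1 in WT. Ypel4 is named after its values were seen. Smtnl1 and Ypel4 have 1 probe and 0 or 1 WT read, so they are in the table only through their tg reads. The same may hold for the probes of Mgll, so these folds are no separate sign of a shift. Ube2o, a ubiquitin-conjugating enzyme gene that helps clear proteins from maturing red cells, lies 1.07 kb from Sphk1 and held 16 reads in tg and 7 in WT (4.32-fold higher, 1.68 to 12.4). Brsk2, a brain kinase gene near Dusp8, held 7 in tg and 4 in WT (ratio 3.31, 0.841 to 15.4), an interval that includes 1. Cox17, which carries copper to the mitochondrial respiratory chain, and the overlapping model RP24-528G7.5 near Popdc2 shared a probe with 17 reads in tg and 15 in WT (2.14-fold higher, 1.01 to 4.61).

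**Figure D3:**
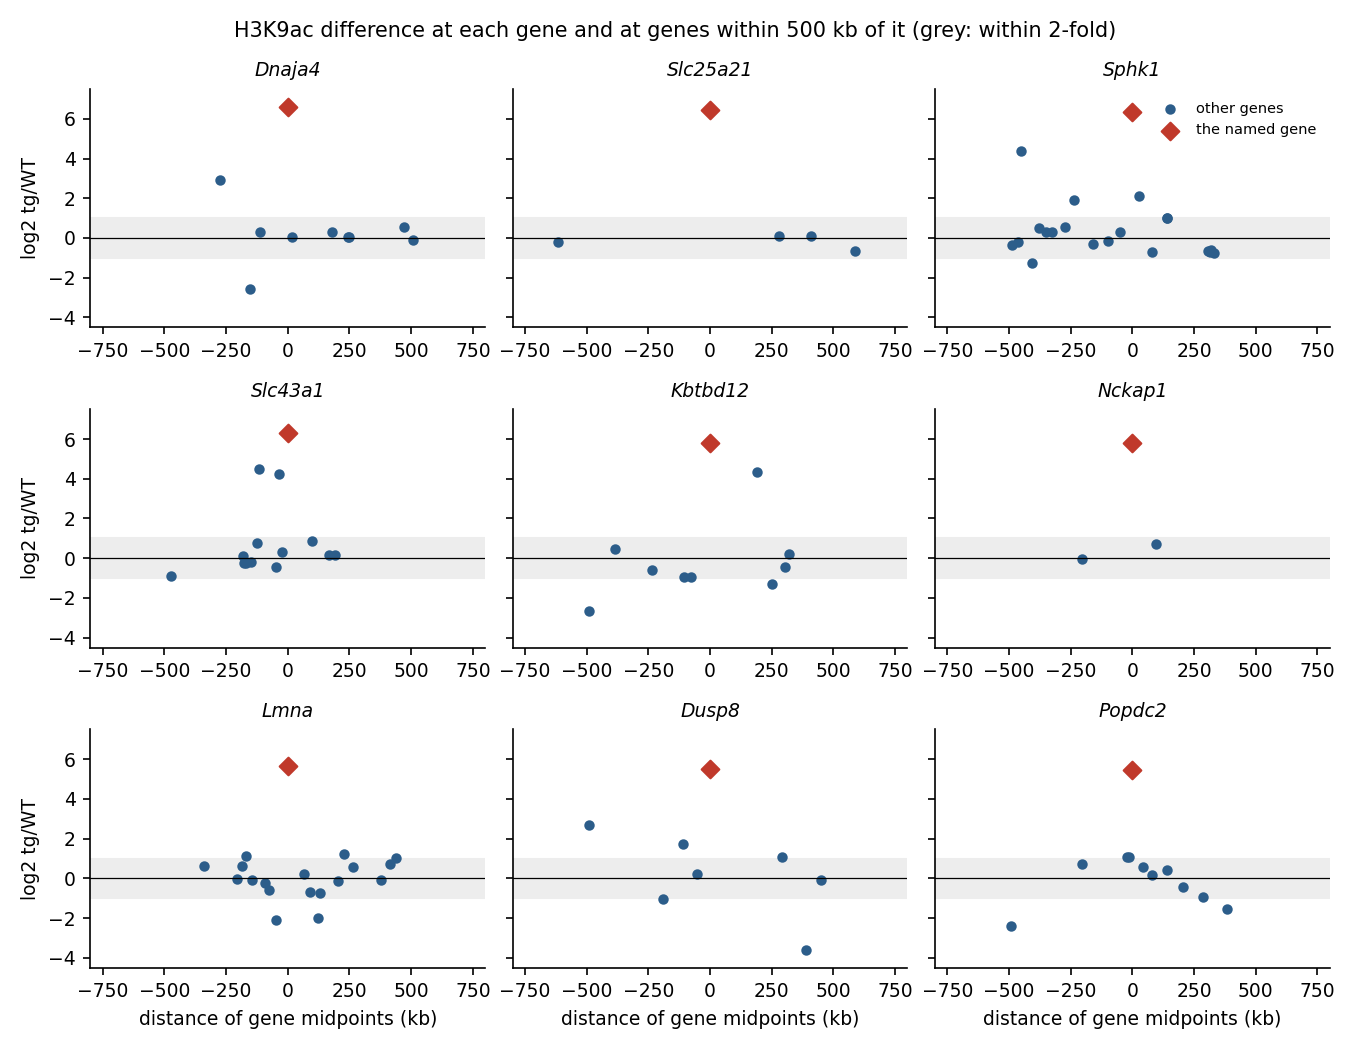
Log2 ratio of tg over WT (vertical) for each of the 9 genes (red diamond, at 0) and for the other genes of the table within 500 kb (blue), by the distance between gene midpoints in kb; the grey band is within 2-fold. Most blue points lie in the band, and 4 lie above a log2 ratio of 4: Smtnl1 (4.24) and Ypel4 (4.50) near Slc43a1, Mgll (4.35) near Kbtbd12, and Wbp2 (4.39) in the Sphk1 panel. Smtnl1, Ypel4 and Wbp2 have 1 probe and 0 or 1 WT read, and are listed only through their tg reads.

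The 9 genes lie on 8 chromosomes, with Slc43a1 and Nckap1 both on chromosome 2. Their lengths ran between 5.75 and 485 kb with a median of 24.7 kb, against 22.5 kb over all genes, and 8 of 9 had 1 probe, as did 77.2% of all genes. RefSeq promoter windows were found for 8 of the 9 genes, all but Nckap1, and came to 15 windows, some of which overlap. GATA letters were in 3 of these windows, 2 of Sphk1 and 1 of Popdc2, and so in 2 of the 8 genes, where 18.6% of all 32851 windows had them. CACCC was in 13 of the 15 and in at least 1 window of all 8 genes, where 57.5% of all windows had it. The E-box letters CANNTG were in 9 of 15 and in 7 of the 8 genes (72.3% of all windows), and the GFI1 core letters AATCA in 1 of 15, a Dusp8 window (37.0% of all). A gene with several windows has more chances of a match, so the counts of genes cannot be set against these shares. CTG followed after 8 or 9 bases by GATAA was in none of the 15 (1.46% of all). Their G and C content varied between 41.7% and 73.3%, with a median of 52.7% over all windows.

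The tg library also held more reads at red cell genes and, in sum, fewer at neutrophil and monocyte markers. Over all genes, 16.5% were 2-fold higher in tg and 15.8% lower. Of 45 listed red cell maturation genes 33 were in the table, and 29 of them (Gfi1b and Mfsd2b included) were 2-fold higher in tg and 2 lower, with a median log2 ratio of 3.31. The 28 with recovered reads summed to 1199 reads in tg and 566 in WT, and 4 of them had 0 reads in WT. Because the table lists no 1-probe gene under 9 reads over both libraries, a 1-probe gene with 0 or 1 WT read is in it only through its tg reads, so such genes are no separate sign of a shift. Slc2a1, a glucose transporter gene (5 in tg and 31 in WT), and Xpo7, an export receptor gene (6 in tg and 28 in WT), were the 2 lower members. Of 20 neutrophil markers, 5 were in the table and all 5 were 2-fold lower, with sums of 9 reads in tg and 97 in WT. Of 14 monocyte and macrophage markers 7 were in the table, 1 higher and 4 lower, with sums of 77 in tg and 689 in WT. The sums rest largely on 1 of the 4 lower genes, with 29 reads in tg and 407 in WT. The higher one was Csf1r (9 in tg and 4 in WT, 4.26-fold, 1.19 to 18.9). Cx3cr1 (ratio 1.44, 0.748 to 2.72) and Ctss (1.51, 0.300 to 7.03) lay within 2-fold. Likewise, a 1-probe gene with 0 or 1 tg read is in the table only through its WT reads, as Cebpa was (1 in tg and 15 in WT). Mpo held 1 in tg and 31 in WT over 2 probes. The 15 other neutrophil markers are not in the table or share a probe with a counted gene, and the 5 counted were listed mostly through their WT reads. No listed neutrophil or monocyte marker in the table had 0 reads in either library. Whether these shifts have a part in the reads of the 9 genes was not tested. In bulk marrow, more cells of a type and more acetylation per cell cannot be told apart.

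Other marker lists were thinly covered. B cell markers (2 of 10 in the table) summed to 36 reads in tg and 46 in WT, or 220 and 149 scaled reads. T and NK cell markers (3 of 10) summed to 18 in tg and 19 in WT, or 110 and 61.4 scaled reads. Megakaryocyte markers (4 of 12) summed to 44 in tg and 39 in WT, or 269 and 126 scaled reads. Of these, P2ry1 (20 in tg and 6 in WT, 6.30-fold higher, 2.44 to 19.2) and F2r (17 in tg and 7 in WT, 4.59-fold higher, 1.81 to 13.1) were 2-fold higher. Selp was lower, with 0 in tg and 10 in WT, and Vwf lay within 2-fold (7 in tg and 16 in WT). The only stromal and endothelial marker in the table (1 of 10), Pecam1, held 1 read in tg and 19 in WT.

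**Figure D4:**
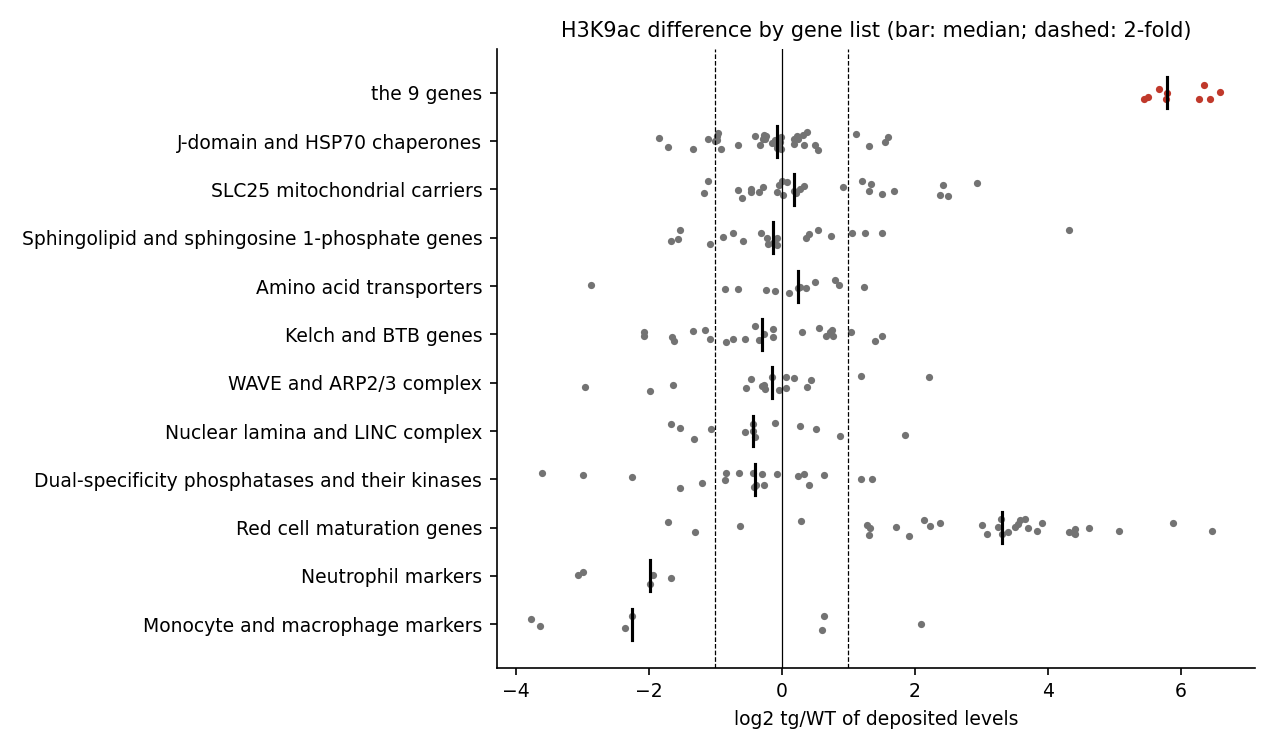
Log2 ratio of tg over WT for the 9 genes (red) and for gene lists with at least 5 genes in the table (grey points, 1 per gene; black bar, median), with dashed lines at 2-fold. The families that the 9 genes belong to have medians between -0.43 and 0.24. The 9 were picked for this difference, so nothing is read from their distance to the families. The red cell list, some of whose genes are listed only through their tg reads, has a median of 3.31. The neutrophil and monocyte lists have medians of -1.99 and -2.26.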

How the data were processed

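H3K9ac ChIP-seq was compared between 1 tg and 1 WT library of mouse leukaemic bone marrow. The submitters' processing notes name the tools CASAVA 1.8.2, FastQC, BWA and SAMtools and the build GRCm38 (mm10). Fixation used 1% formaldehyde and sonication took 20 min, per the labels' protocols. The deposited values are log2 levels, the mean over a gene's probes, with the standard deviation in a second column, per the file headers. The sources used here do not say how probes were placed or duplicates treated.

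Whole reads were recovered from the values. For all 7423 genes with 1 probe (100% in both libraries), the linear value was a whole multiple of 1 step, within 0.01 of a read (within 0.01 per 50 reads above that), with 0 reads entered as 0.9. The step was 6.11 in tg and 3.23 in WT. For 2 to 4 probes, reads were kept where exactly 1 set of whole numbers matched mean and standard deviation. The 117 genes with 5 or more probes have deposited log2 values only. Recovery and intervals were tested on simulated data. Ratios are of reads per library total with exact conditional binomial (Clopper-Pearson) 95% intervals, for counting error only, since no molecular identifiers are named and reads may be copies of 1 molecule. For genes with several probes these ratios weigh probes by their reads, and can differ from the deposited log2 ratios. A fold against 0 reads uses a floor of 3 reads per library and is not the lower end of an interval. Counts of list genes use the deposited log2 ratios at 2-fold, a rule of size. Nearby list genes with identical values were counted once, so a listed gene not counted as in the table may share a counted gene's probe. By this rule 16.5% of all genes were higher in tg and 15.8% lower. Older gene symbols were matched through RefSeq synonyms at the same position (12 list genes). Sequences are from RefSeq (GRCm38.p6). Members, lists and the naming rule (all 9 members, the genes at the edge of the rule, neighbours within 100 kb, and up to 3 highest and 3 lowest genes per list) were chosen with earlier results of these data known. Paralogues, transport and pathway partners nearer to equality were named after their values were seen. 1 gene that this naming rule covers is not reported here. Alternatives are in the closing section. Python 3.11.15, NumPy 2.4.6, pandas 2.3.3, SciPy 1.17.1 and Matplotlib 3.10.9 were used.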

Additional observations from a re-analysis of the deposited data

How the results depend on the processing

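Because the rule picked genes with a large difference, the alternatives run could not reverse the sign of the 9 log2 ratios. Only the size of these ratios is given. They ran between 5.40 and 6.55 with all genes centred at a median of 0, between 5.46 and 6.61 when scaled by the reads recovered at genes, and between 5.44 and 6.44 by summed reads for the 6 genes with a WT read. For the 3 genes without one, entering 0 as 0.5 of a read gave 6.65 to 7.44 and the floor of 3 reads 4.54 to 5.14. The count of 99 genes with at most 1 WT read became 46 with 0 WT reads only and 179 with at most 2. Of the red cell list, 13 genes rather than 29 were 2-fold higher when only genes at or above the median mean level were kept. By summed reads 23 were, among the 28 genes with recovered reads. At 4-fold, 0 rather than 2 were lower. These alternatives leave fewer genes to count. No replicate could be left out, and no paired analysis was possible because each genotype has 1 library. At this depth, 0 reads and 1 read in a library cannot be told apart.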

Other observations

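Other genes with 0 or 1 WT read, named after their values were seen, included more red cell genes and several known from other tissues. Mir451, which lies beside Mir144, held 9 and 40 reads on 2 probes in tg and 1 in WT in all; 1 of these probes has the same tg reads as that of Mir144, and both microRNAs are abundant in red cell precursors. The beta globin gene Hbb-b1 held 13 reads in tg and 0 in WT. Among genes of other tissues, the serotonin receptor gene Htr2a held 16 reads in tg and 0 in WT, the tetraspanin gene Tspan8 held 18 in tg and 1 in WT, and the glutamate transporter gene Slc1a3 held 13 in tg and 0 in WT. Megf11, an adhesion receptor gene, held 9 and 25 reads on its 2 probes in tg and 0 in WT. Pigk and St6galnac5 had the same values, 17 reads in tg and 0 in WT, and overlap each other, so that they count as 1 measurement.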
